A study of Mus musculus with 16 samples.

Results

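The genes described here are 9 mouse genes of intestinal iron uptake and storage: Slc11a2, Cybrd1, Tfrc, Steap3, Slc46a1, Fth1, Ftl1, Slc40a1 and Heph. They were chosen by gene symbol for their known roles, with no measured value in the rule, and all 9 were found among the 19964 genes listed at both time points (20790 at day 2 and 20658 at day 4). RNA came from epithelial organoids grown from the jejunum of C57BL/6 mice, all of the genotype Villin-CreERT2; Hnf4aflox/flox. CreERT2 is a recombinase that 4-hydroxytamoxifen (4OHT) activates, the Villin promoter limits it to the gut epithelium, and the floxed target is Hnf4a, which encodes a nuclear receptor of that epithelium. The 4 groups hold 4 libraries each: DMSO (the solvent, control) at day 2, 4OHT at day 2, DMSO at day 4 and 4OHT at day 4. The 4OHT organoids had 0.5 µM 4OHT over 24 h and were split afterwards, and the controls carried the same recombinase and floxed alleles. The labels describe 1 harvest, on day 4 following a passage, and the days are used as labelled. Whether replicates were separate animals or cultures is not stated in the labels, so p-values measure only how far these libraries spread, and that spread may be technical.

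Levels are given as CPM (counts per M counts of the library), scaled over all 16 libraries, and fold changes as log2 ± standard error (SE) from edgeR, where an adjusted p below 0.05 is a call. Summed markers of cell types are CPM of the library total, without that scaling. Hnf4a, the targeted gene, went from 1020.5 ± 31.7 CPM (SD, n = 4) in DMSO to 511 ± 21.2 in 4OHT at day 2, and from 967 ± 11.9 to 469 ± 15.3 at day 4. Its log2 change was -0.99 ± 0.05 at day 2 (edgeR adjusted p = 8.25e-08) and -1.04 ± 0.05 at day 4 (edgeR adjusted p = 1.14e-06), so about the same share of its counts remained on both days. Counts cover the whole gene and not the floxed part alone, so the share of intact Hnf4a RNA was not measured. The library 4OHT day 4 replicate 4 stood apart from its group on the second principal component, at -43.0 against -30.2 to -18.5. Totals were 63.8 M to 93.3 M counts per library.

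The enterocyte takes up dietary iron at its apical side after a surface reductase has turned ferric into ferrous iron, which a proton-coupled transporter then carries in. Iron inside the cell is bound by ferritin or leaves at the basolateral side through ferroportin, helped by a copper ferroxidase. Transferrin-bound iron enters from the blood side through the transferrin receptor and is reduced in the endosome. Cells match these proteins to their iron through iron-responsive elements, RNA hairpins that iron regulatory proteins bind when iron is scarce. In a 5′ UTR such a hairpin blocks translation, and in a 3′ UTR it protects the messenger from decay.

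These hairpins are a sequence feature that several of the 9 genes share, and they are shown first. The genes were chosen for known roles in iron handling, and the hairpins are known from such genes. The matches are therefore a description and not a result found here. The search took a C, a 5-base arm, a loop CAGTGN whose last base is not G, and a second arm pairing with the first (G with T allowed), on the sense strand of GENCODE M21 transcripts. Of the 9 genes, 3 held a match in the 5′ UTR, 1 held 4 matches in the 3′ UTR, and 5 held none in any UTR. Across 21901 protein-coding genes, 0.105% held a match in a 5′ UTR and 0.457% in a 3′ UTR. Each sequence below has 29 bases, 5′ to 3′ on the gene's strand, with the 6 loop bases in capitals.
Fth1 5′ UTR: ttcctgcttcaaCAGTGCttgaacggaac
Ftl1 5′ UTR: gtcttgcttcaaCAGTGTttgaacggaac
Slc40a1 5′ UTR: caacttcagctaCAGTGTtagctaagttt
Tfrc 3′ UTR, element 1: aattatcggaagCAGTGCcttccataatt
Tfrc 3′ UTR, element 2: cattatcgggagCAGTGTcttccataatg
Tfrc 3′ UTR, element 3: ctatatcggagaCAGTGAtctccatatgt
Tfrc 3′ UTR, element 4: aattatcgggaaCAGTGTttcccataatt
On GRCm38 the 17-base elements lie at chr19:9982738-9982754 on the plus strand (Fth1), chr7:45459785-45459801 on the minus strand (Ftl1) and chr1:45925471-45925487 on the minus strand (Slc40a1). Those of Tfrc lie on the plus strand at chr16:32631225-32631241, chr16:32631604-32631620, chr16:32631669-32631685 and chr16:32631716-32631732. Slc11a2, Cybrd1, Steap3, Slc46a1 and Heph had no match. The messenger of Slc11a2 is known to have forms with an element whose arm carries an unpaired base, a shape this search does not allow. A match is a stretch of letters, and no binding or RNA stability was measured here.

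At both days the 2 genes of the transferrin route, Steap3 and Tfrc, were lower in 4OHT than in DMSO organoids. Slc46a1 was higher in 4OHT at day 2, and Ftl1 and Heph were higher at day 4. Slc11a2, Cybrd1, Fth1 and Slc40a1 did not pass the test on either day in the fits of all 8 libraries without a replicate block. At day 2, 1 of the 9 genes was called higher and 2 lower, where 31.1% of all 15897 genes tested were called in either direction (16.9% higher, 14.3% lower). At day 4, 2 were called higher and 2 lower, where 24.7% of 16040 genes were called (13.7% higher, 11.1% lower). With the replicate number as a block, since same-numbered libraries deviated together at day 4, Slc11a2 was called too (3 higher, 2 lower), where 22.8% of all genes were called higher and 22.2% lower. Against that background the count at day 2 is near the share of all genes. All 9 genes passed the filter on low counts in every comparison. Their median log2 change was -0.06 at day 2 and 0.17 at day 4, beside -0.00 and -0.01 over all genes tested.

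**Figure D1:**
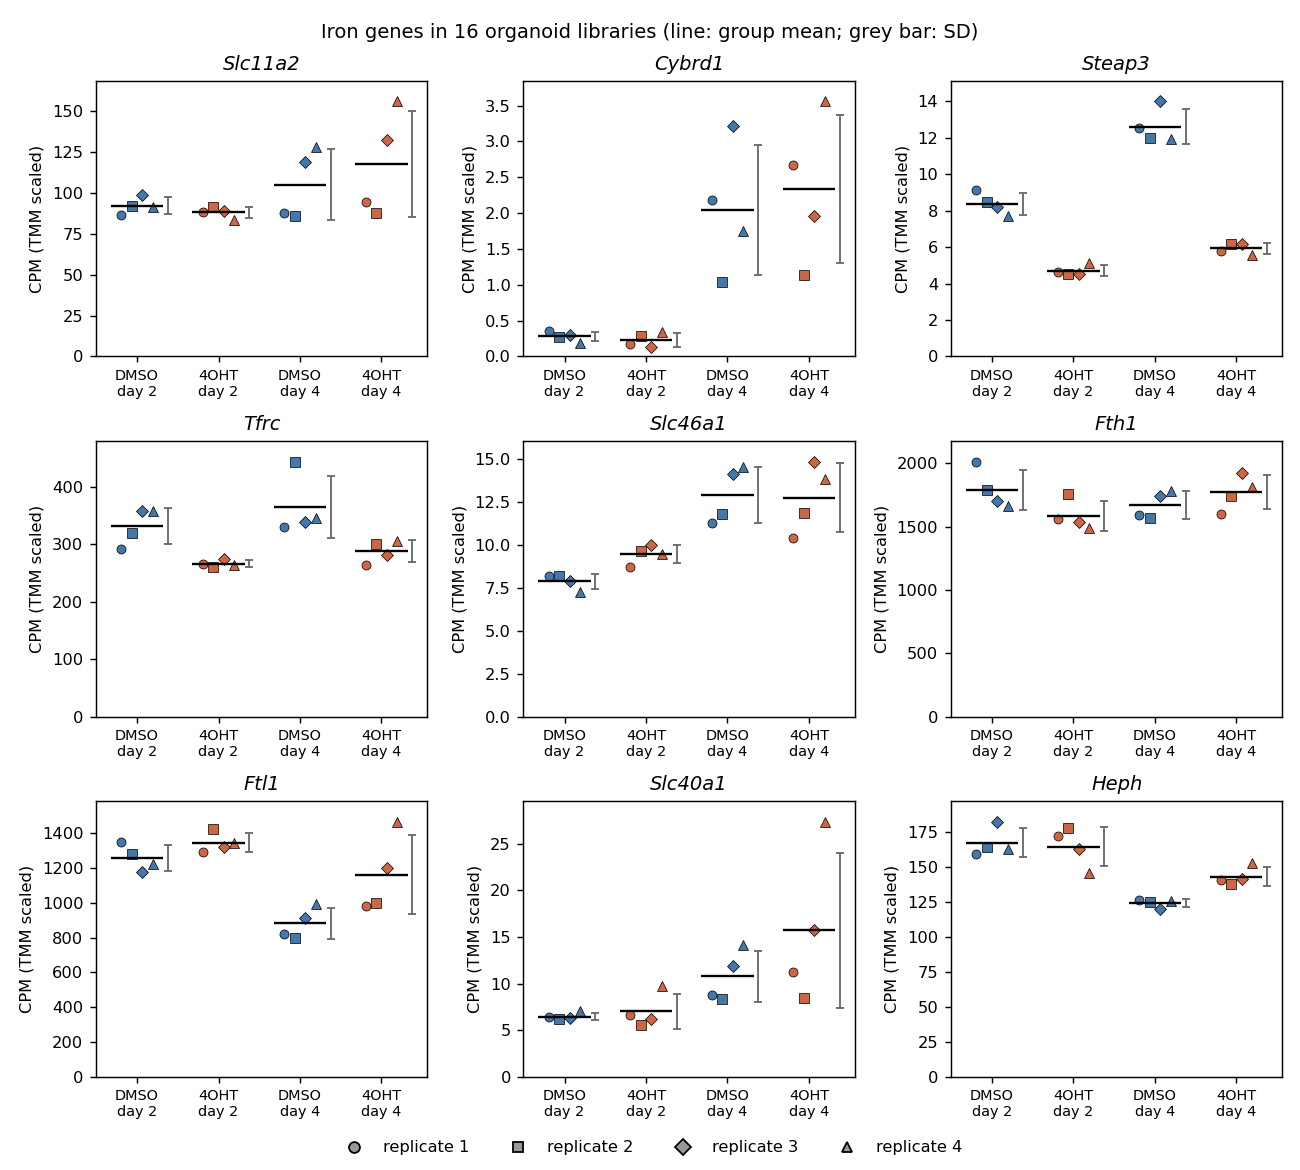
Level of each of the 9 iron genes (vertical axis, CPM, starting at 0, its own scale in each panel) in the 4 groups (horizontal axis), with 1 symbol per library, a black line for the group mean and a grey bar for the SD. Steap3 sits between 7.69 and 9.13 CPM in the DMSO libraries of day 2 and between 4.50 and 5.13 in the 4OHT ones, while the groups of Cybrd1 differ by day, from at most 0.352 CPM at day 2 to at least 1.03 at day 4.

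The apical transporter of ferrous iron, DMT1, is encoded by Slc11a2 (ENSMUSG00000023030, GRCm38 chr15:100387898-100425072, minus strand). In replicates 1 to 4 its level was 86.6, 91.8, 98.8 and 91.4 CPM in DMSO at day 2 and 88.3, 91.3, 88.8 and 83.7 in 4OHT. On day 4 these replicates had 87.7, 85.6, 119 and 128 CPM in DMSO and 94.2, 87.8, 133 and 156 in 4OHT. The groups overlapped on both days, and at day 4 replicates 3 and 4 were the high ones under either treatment. The log2 change was -0.06 ± 0.05 at day 2 (edgeR adjusted p = 0.423, 95% interval -0.17 to 0.05) and 0.17 ± 0.20 at day 4 (edgeR adjusted p = 0.595, -0.28 to 0.62). Same-numbered libraries deviated together at day 4, and there each 4OHT library was 1.03 to 1.22 times its DMSO partner. With the replicate number as a block, the day 4 change of Slc11a2 was 0.15 ± 0.04 (edgeR adjusted p = 0.0107), which passes the threshold. Without 4OHT replicate 4, added after seeing the data, the blocked change was 0.11 (edgeR adjusted p = 0.00500) and the change without a block 0.0036 (edgeR adjusted p = 0.992). The predicted gene Gm5475, on the opposite strand, shares exon bases with Slc11a2 but had only 16 to 43 counts per library, against 5573 to 12715 for Slc11a2.

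Cybrd1 (ENSMUSG00000027015, chr2:71117923-71142926, plus strand) encodes duodenal cytochrome b, the apical ferric reductase. It was close to the limit of detection at day 2: 0.352, 0.272, 0.305 and 0.191 CPM in DMSO, from 16 to 27 counts, and 0.169, 0.289, 0.127 and 0.337 in 4OHT, from 8 to 30 counts. By day 4 it had 2.18, 1.03, 3.21 and 1.75 CPM in DMSO and 2.68, 1.13, 1.96 and 3.56 in 4OHT. Every day 4 library was above every day 2 library of its treatment, as in either direction for 48.7% of all genes in DMSO and 45.9% in 4OHT, whereas the treatment groups overlapped on each day. The treatment change was -0.22 ± 0.30 at day 2 (edgeR adjusted p = 0.621) and 0.20 ± 0.38 at day 4 (edgeR adjusted p = 0.744). The 95% intervals, -0.86 to 0.43 and -0.65 to 1.06, leave room for changes in either direction.

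Both genes of the transferrin route were called lower in 4OHT on both days. Steap3 (ENSMUSG00000026389, chr1:120190757-120272705, minus strand) encodes the endosomal reductase that prepares transferrin-borne iron for export from the endosome. Its level was 9.13, 8.47, 8.17 and 7.69 CPM in DMSO at day 2, against 4.66, 4.50, 4.52 and 5.13 in 4OHT. In the day 4 libraries it was 12.5, 12.0, 14.0 and 11.9 CPM in DMSO and 5.81, 6.19, 6.15 and 5.54 in 4OHT. On both days every 4OHT library lay below every DMSO library. Such a separation, in either direction, was found for 32.1% of all genes at day 2 and 28.4% at day 4. Steap3 fell by 0.82 ± 0.07 on the log2 scale at day 2 (edgeR adjusted p = 5.69e-06) and by 1.09 ± 0.08 at day 4 (edgeR adjusted p = 1.81e-05). Each 4OHT library held 0.510 to 0.667 times the level of the same-numbered DMSO library at day 2 and 0.439 to 0.517 times at day 4.

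Tfrc (ENSMUSG00000022797, chr16:32608920-32632794, plus strand) encodes the transferrin receptor, which takes up iron-loaded transferrin. Its 3′ UTR holds the 4 matches shown above, and elements of a shape the search does not allow would be missed. DMSO libraries had 292, 319.7, 358 and 358 CPM at day 2 and 4OHT libraries 266, 260.1, 274 and 265. On day 4 the values were 330.2, 444, 339.5 and 346 CPM in DMSO and 264, 301, 282 and 306 in 4OHT. The groups did not overlap on either day, as for 32.1% of all genes at day 2 and 28.4% at day 4, and DMSO day 4 replicate 2 was the highest library of all. Tfrc fell by 0.31 ± 0.07 at day 2 (edgeR adjusted p = 0.00468) and by 0.34 ± 0.09 at day 4 (edgeR adjusted p = 0.0245), on the log2 scale. Without DMSO replicate 2 the day 4 change was -0.23 (edgeR adjusted p = 0.0269). That call was lost, in fits without a block, without 4OHT replicate 1 (edgeR adjusted p = 0.0648) or 4OHT replicate 3 (edgeR adjusted p = 0.0589). With the replicate number as a block, the day 4 change of Tfrc was -0.33 ± 0.06 (edgeR adjusted p = 0.00169), where 22.2% of all genes were called lower. Without 4OHT replicate 4 as well, added after seeing the data, the blocked change was -0.38 (edgeR adjusted p = 4.17e-05).

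**Figure D2:**
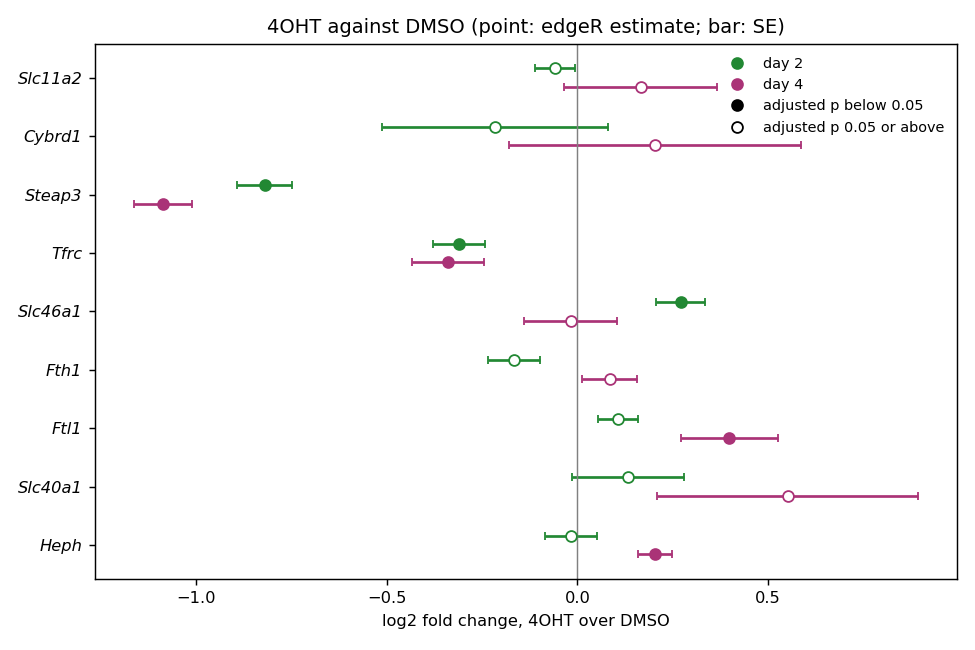
Log2 change of the 9 genes, 4OHT over DMSO, at day 2 and day 4 (horizontal axis, log2 units), with bars for the SE and filled points for an edgeR adjusted p below 0.05. Steap3 lies farthest from 0 on both days, at -0.82 and -1.09, and the SE of Cybrd1 (0.30 and 0.38) and of Slc40a1 at day 4 (0.34) are the wide ones.

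Slc46a1 (ENSMUSG00000020829, chr11:78465697-78472059, plus strand) encodes the proton-coupled folate transporter, which has also been described as a haem carrier. At day 2 it had 8.15, 8.20, 7.87 and 7.24 CPM in DMSO and 8.71, 9.61, 9.99 and 9.48 in 4OHT. All 4 treated libraries lay above all 4 controls, where 32.1% of all genes separated in either direction. The change was 0.27 ± 0.06 on the log2 scale (edgeR adjusted p = 0.00733). In the fit over all 16 libraries the adjusted p of the day 2 change was 0.0693 (edgeR), above the threshold. Day 4 libraries had 11.2, 11.8, 14.1 and 14.5 CPM in DMSO and 10.4, 11.8, 14.8 and 13.8 in 4OHT. The groups overlapped there, the change was -0.02 ± 0.12 (edgeR adjusted p = 0.934), and its 95% interval ran from -0.29 to 0.25.

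Ferritin, the storage shell, is built from a heavy chain with ferroxidase activity (Fth1, ENSMUSG00000024661, chr19:9980598-9985098, plus strand) and a light chain (Ftl1, ENSMUSG00000050708, chr7:45457944-45459884, minus strand). Both were abundant in every library. Fth1 had 2015, 1788, 1701 and 1662 CPM in DMSO at day 2 and 1562, 1759, 1540.1 and 1487 in 4OHT. Its day 4 levels were 1593, 1567, 1743 and 1783 CPM in DMSO and 1602, 1743, 1923 and 1814 in 4OHT. The groups of Fth1 overlapped on both days, with a log2 change of -0.17 ± 0.07 at day 2 (edgeR adjusted p = 0.0911) and 0.08 ± 0.07 at day 4 (edgeR adjusted p = 0.437). At day 2 Fth1 passed the threshold when DMSO replicate 4 (-0.21, edgeR adjusted p = 0.0483) or 4OHT replicate 2 (-0.22, edgeR adjusted p = 0.0282) was left out.

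Ftl1 had 1351, 1281, 1178 and 1222 CPM in DMSO at day 2 and 1293, 1424, 1325 and 1345 in 4OHT. At day 4 it had 824, 801, 914 and 994 CPM in DMSO and 985, 998, 1203 and 1468 in 4OHT. The light chain thus overlapped between treatments at day 2, and at day 4 only DMSO replicate 4 reached into the range of the 4OHT libraries. The log2 change was 0.11 ± 0.05 at day 2 (edgeR adjusted p = 0.148; 0.13 and 0.0435 without DMSO replicate 1) and 0.40 ± 0.13 at day 4 (edgeR adjusted p = 0.0435). Each day 4 library in 4OHT was 1.20 to 1.48 times its same-numbered DMSO library. In fits without a block, the day 4 call was lost without DMSO replicate 1, 2 or 3 (edgeR adjusted p = 0.115, 0.108 and 0.0780). It was also lost without 4OHT replicate 3 or 4 (edgeR adjusted p = 0.107 and 0.0624) and with no filter on low counts (edgeR adjusted p = 0.0502). With the replicate number as a block, the day 4 change of Ftl1 was 0.38 ± 0.05 (edgeR adjusted p = 0.000113), where 22.8% of all genes were called higher. Without 4OHT replicate 4 as well, added after seeing the data, the blocked change was 0.33 (edgeR adjusted p = 4.9e-09). Ferritin pseudogenes could share reads with these genes. Of those listed, Fth-ps2 had 0 to 5 counts and Ftl2-ps 1 to 10, against at least 60127 for either ferritin chain.

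Because both chains are read in the same library, the ratio of their counts does not depend on the scaling between libraries. The ratio was chosen after the values were seen, so it is given as a description. Fth1 over Ftl1 counts came to 1.49, 1.40, 1.44 and 1.36 in DMSO at day 2 and to 1.21, 1.24, 1.16 and 1.11 in 4OHT. The day 4 ratios were 1.93, 1.96, 1.91 and 1.79 in DMSO and 1.63, 1.75, 1.60 and 1.24 in 4OHT. On both days every 4OHT library was below every DMSO library, and the 4OHT mean was 0.828 times the DMSO mean at day 2 and 0.818 times at day 4. Leaving out each library in turn gave 0.815 to 0.845 at day 2 and 0.783 to 0.873 at day 4. The library 4OHT day 4 replicate 4 was the lowest of its group. An exact two-sided permutation test over libraries gave p = 0.0286 on each day, the smallest that 4 against 4 allows, and it supports nothing further because the ratio was picked from these values.

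**Figure D3:**
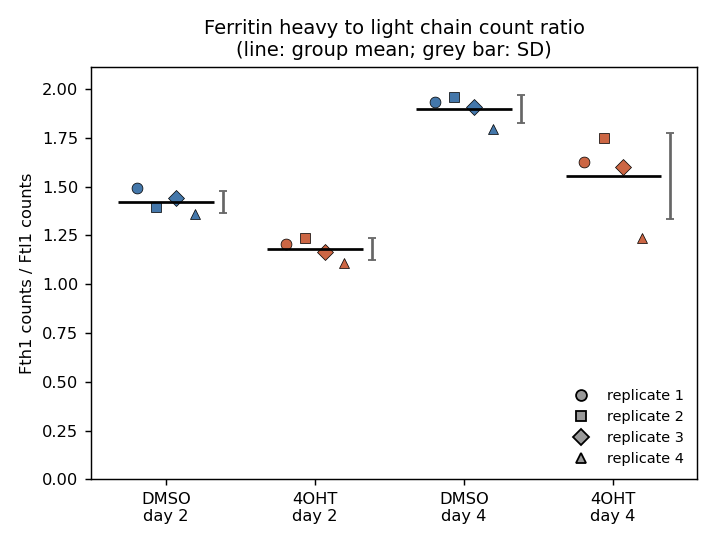
Ratio of Fth1 to Ftl1 counts (vertical axis, starting at 0) in each of the 16 libraries by group (horizontal axis), with a black line for the group mean and a grey bar for the SD. At day 2 the means are 1.42 (DMSO) and 1.18 (4OHT), and at day 4 they are 1.90 and 1.55.

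Ferroportin, the only known iron exporter of animal cells, is encoded by Slc40a1 (ENSMUSG00000025993, chr1:45908068-45926523, minus strand). At day 2 it had 6.36, 6.18, 6.26 and 7.01 CPM in DMSO and 6.58, 5.51, 6.20 and 9.75 in 4OHT. Its day 4 levels were 8.74, 8.34, 11.8 and 14.1 CPM in DMSO and 11.3, 8.40, 15.7 and 27.4 in 4OHT. Replicate 4 was the highest library of each of the 4 groups, most so in 4OHT at day 4. The groups overlapped, and the change was 0.13 ± 0.15 at day 2 (edgeR adjusted p = 0.531) and 0.55 ± 0.34 at day 4 (edgeR adjusted p = 0.283). Without 4OHT replicate 4 the day 4 change was 0.14 (edgeR adjusted p = 0.723), so that library set most of its size. In the fit with the replicate block Slc40a1 had 0.46 ± 0.16 (edgeR adjusted p = 0.0667), and without that library 0.28 ± 0.07 (edgeR adjusted p = 0.00183), past the threshold.

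Heph (ENSMUSG00000031209, chrX:96455359-96574485, plus strand) encodes hephaestin, the membrane ferroxidase that works with ferroportin. Its DMSO libraries had 159, 165, 183 and 163 CPM at day 2, and its 4OHT libraries 172, 178, 163 and 146. Day 4 levels were 126, 125, 120.2 and 126 CPM in DMSO and 140.4, 138, 142 and 153 in 4OHT. The groups overlapped at day 2, with a change of -0.02 ± 0.07 (edgeR adjusted p = 0.887). They did not overlap at day 4, as in either direction for 28.4% of all genes. Heph rose there by 0.20 ± 0.05 on the log2 scale (edgeR adjusted p = 0.00842). The antisense neighbour Hsf3 shares exon bases with Heph and had 7 to 22 counts per library, against 7907 to 15570 for Heph.

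Whether the treatment difference itself changed from day 2 to day 4 was tested as an interaction over all 16 libraries. None of the 9 genes was called by edgeR or by DESeq2, where 1.68% of 16597 genes were called by edgeR (1.2% higher, 0.476% lower). At an unadjusted edgeR p below 0.05 there were 3 of the 9, beside 17.5% of all genes. Those 3 were Heph (0.23 ± 0.08, edgeR adjusted p = 0.163), Fth1 (0.26 ± 0.11, edgeR adjusted p = 0.215) and Steap3 (-0.26 ± 0.11, edgeR adjusted p = 0.215). The call of Heph and Ftl1 at day 4 and of Slc46a1 at day 2 is therefore not shown to be particular to 1 day by this fit. A block for each number and day, added after seeing the data, called 1170 of all genes higher and 680 lower, against 199 and 79 without a block. With it, 3 of the 9 genes were called: Slc11a2 (0.21, edgeR adjusted p = 0.0499), Ftl1 (0.28, edgeR adjusted p = 0.0349) and Slc46a1 (-0.29, edgeR adjusted p = 0.0400). All 3 of these calls were lost in that fit without 4OHT day 4 replicate 4, with 0.17 for Slc11a2 (edgeR adjusted p = 0.126), 0.23 for Ftl1 (edgeR adjusted p = 0.0594) and -0.27 for Slc46a1 (edgeR adjusted p = 0.0768). Without a block, leaving out that library took the interaction of Slc11a2 from 0.23 to 0.067 and that of Ftl1 from 0.30 to 0.17.

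Cybrd1, Slc40a1, Slc46a1 and Steap3 rose from day 2 to day 4 under both treatments, and Heph fell under both. In DMSO organoids 4 of the 9 genes rose and 2 fell, where 53.5% of 16088 genes were called (28.7% higher, 24.8% lower). Cybrd1 rose by 2.87 ± 0.35 on the log2 scale (edgeR adjusted p = 4.17e-05), Slc40a1 by 0.75 ± 0.15 (edgeR adjusted p = 0.00130), Slc46a1 by 0.73 ± 0.09 (edgeR adjusted p = 2.26e-05) and Steap3 by 0.60 ± 0.08 (edgeR adjusted p = 2.65e-05). Ftl1 fell by 0.50 ± 0.07 (edgeR adjusted p = 0.000107) and Heph by 0.41 ± 0.05 (edgeR adjusted p = 2.61e-05). Slc11a2 (0.20 ± 0.12), Tfrc (0.15 ± 0.10) and Fth1 (-0.09 ± 0.07) did not pass the test. The call of Slc40a1 was lost in the fit over all 16 libraries (edgeR adjusted p = 0.0543).

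In 4OHT organoids 4 genes rose from day 2 to day 4 and 1 fell, where 49.4% of 15962 genes were called (25.9% higher, 23.5% lower). The rises were those of Cybrd1 (3.29 ± 0.40, edgeR adjusted p = 0.000129), Slc40a1 (1.16 ± 0.35, edgeR adjusted p = 0.0245), Slc46a1 (0.44 ± 0.10, edgeR adjusted p = 0.00537) and Steap3 (0.34 ± 0.08, edgeR adjusted p = 0.00648). Heph fell by 0.19 ± 0.06 (edgeR adjusted p = 0.0242). Ftl1, which fell in DMSO, had -0.20 ± 0.11 here (edgeR adjusted p = 0.153; -0.33 and 0.00251 without 4OHT day 4 replicate 4). Slc11a2 had 0.42 ± 0.16 (edgeR adjusted p = 0.0553) and was called without 4OHT day 4 replicate 1 (0.51, edgeR adjusted p = 0.0348) or 2 (0.54, edgeR adjusted p = 0.0113), and by DESeq2 (adjusted p = 0.0168). Without 4OHT day 4 replicate 4 the change of Slc11a2 was 0.27 (edgeR adjusted p = 0.104). Tfrc had 0.12 ± 0.05 (edgeR adjusted p = 0.0781; 0.0331 without 4OHT day 4 replicate 1), and Fth1 0.17 ± 0.07 (edgeR adjusted p = 0.0820). Fth1 was called without 4OHT day 4 replicate 1 (0.20, edgeR adjusted p = 0.0462) or 4OHT day 2 replicate 2 (0.22, edgeR adjusted p = 0.0322).

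The 4OHT calls of Slc40a1 and Heph over time were the fragile ones. That of Slc40a1 was lost without 4OHT day 2 replicate 1, 2 or 3 (edgeR adjusted p = 0.0525, 0.0704 and 0.0683) or 4OHT day 4 replicate 3 (edgeR adjusted p = 0.0530) and with no filter on low counts (edgeR adjusted p = 0.0506), and its size was 0.76 without 4OHT day 4 replicate 4. That of Heph was lost without 4OHT day 2 replicate 1 or 2 (edgeR adjusted p = 0.0686 and 0.0730) and without 4OHT day 4 replicate 1, 2 or 3 (edgeR adjusted p = 0.0514, 0.0517 and 0.0518), and with the replicate block (edgeR adjusted p = 0.0505).

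**Figure D4:**
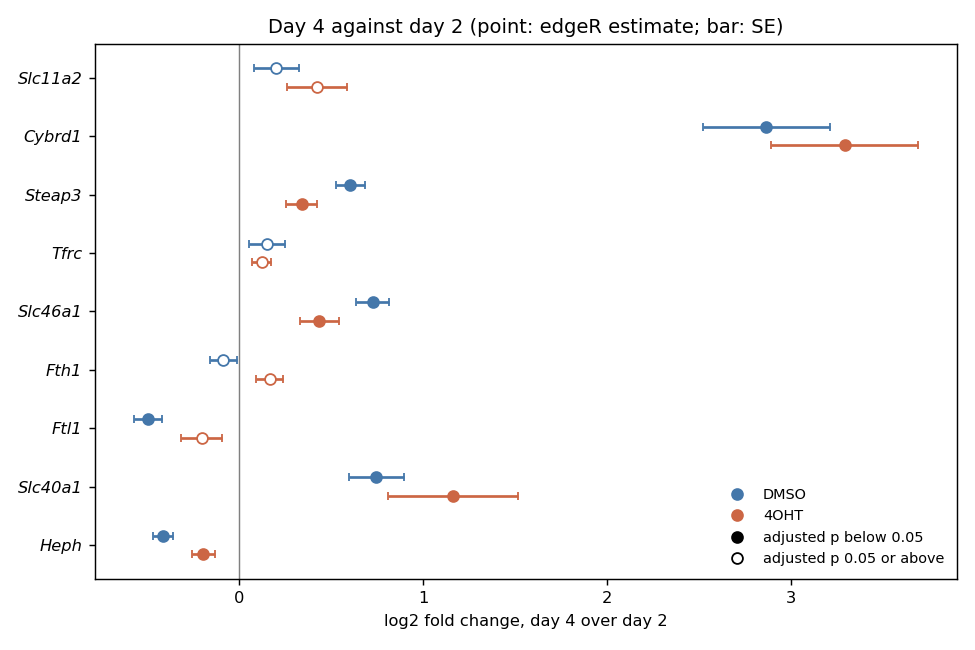
Log2 change of the 9 genes from day 2 to day 4 (horizontal axis, log2 units) in DMSO and in 4OHT organoids, with bars for the SE and filled points for an edgeR adjusted p below 0.05. Cybrd1 stands far to the right at 2.87 and 3.29, and Heph lies left of 0 under both treatments, at -0.41 and -0.19.

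Set against the length of the exons of each gene, the ferritin chains were the most abundant of the 9 in DMSO at day 2, with 939 CPM per kb for Ftl1 and 516 for Fth1. Below them came Tfrc at 53.7, Heph at 21.8, Slc11a2 at 14.5, Slc46a1 at 2.55, Steap3 at 1.46, Slc40a1 at 0.717 and Cybrd1 at 0.0524 CPM per kb. No neighbours in this order overlapped between libraries there. In DMSO at day 4 Heph (15.7 to 16.5 CPM per kb) and Slc11a2 (13.5 to 20.1) overlapped, and in 4OHT so did Heph with Slc11a2 at day 4 and Steap3 with Slc40a1 on both days. With the length of the principal transcript instead, chosen after seeing the data, Fth1 (1119) was above Ftl1 (912) in DMSO at day 4, and Slc40a1 (1.91) above Steap3 (1.62) in DMSO at day 2. The order within these pairs thus depends on which transcript form is counted.

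The other genes of iron and haem handling were described by 5 lists, with counts called in each direction and no test of a list. Of 14 tested genes of iron regulation and carriers, 4 were higher and 3 lower at day 2, beside 16.9% and 14.3% of all genes. At day 4 the counts were 4 higher and 3 lower of 17, beside 13.7% and 11.1% of all genes. Epas1, which encodes the hypoxia-inducible factor HIF-2α known to drive intestinal iron absorption genes, rose by 0.59 ± 0.06 at day 2 (edgeR adjusted p = 3.56e-05) and by 0.70 ± 0.11 at day 4 (edgeR adjusted p = 0.00117), on the log2 scale. Its level went from 22.8 ± 1.60 CPM in DMSO to 34.3 ± 1.92 in 4OHT at day 2 (SD, n = 4), and from 21.1 ± 1.57 to 34.3 ± 5.65 at day 4. Hfe, the gene of the haemochromatosis protein that pairs with the transferrin receptor, rose by 0.33 ± 0.06 (edgeR adjusted p = 0.00141) and by 0.50 ± 0.11 (edgeR adjusted p = 0.00664). Ncoa4, which delivers ferritin for breakdown, rose by 0.27 ± 0.05 at day 2 (edgeR adjusted p = 0.00221), a call lost in the fit over all 16 libraries (edgeR adjusted p = 0.198). Tfr2, the second transferrin receptor, was scarce at day 4, with 0.563 ± 0.104 CPM in DMSO and 0.203 ± 0.0312 in 4OHT, and fell by 1.45 ± 0.21 (edgeR adjusted p = 0.000942). Hamp, the hepcidin gene, was not listed in either table.

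Of the genes of mitochondrial iron and iron-sulphur cluster assembly, 7 of 21 were called lower and 0 higher by edgeR at day 2 (all genes: 14.3% lower, 16.9% higher), and 3 of 21 lower and 0 higher at day 4 (all genes: 11.1% lower, 13.7% higher). At an unadjusted p below 0.05 the counts were 9 lower and 0 higher at day 2, beside 20.1% and 21.4% of all genes, and 6 lower and 0 higher at day 4, beside 17.8% and 19.4%. The median log2 change of this list was -0.11 at day 2 and -0.08 at day 4, beside -0.00 and -0.01 over all genes. Hscb, a co-chaperone that hands over new clusters, fell by 0.44 ± 0.08 at day 2 (edgeR adjusted p = 0.00109), and Lyrm4, a partner of the sulphur donor, by 0.29 ± 0.07 (edgeR adjusted p = 0.00831). Hspa9, a mitochondrial chaperone, fell by 0.18 ± 0.04 at day 4 (edgeR adjusted p = 0.0118). These changes were smaller than that of Steap3.

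Haem synthesis had 2 lower and 0 higher of 8 genes by edgeR at day 2 (3 and 1 at an unadjusted p below 0.05), beside 14.3% and 16.9% of all genes called, and at day 4 none of 8 was called (1 lower at an unadjusted p below 0.05, beside 17.8% of all genes). Urod, a decarboxylase of that pathway, fell by 0.27 ± 0.05 at day 2 (edgeR adjusted p = 0.00234). Of 8 genes of haem export, import and breakdown, 1 was higher and 2 lower at day 2 (all genes: 16.9% and 14.3%), and 1 lower at day 4 (all genes: 11.1%). Hmox1, the haem oxygenase, rose by 0.86 ± 0.14 at day 2 (edgeR adjusted p = 0.000901), from 5.18 ± 0.945 to 9.32 ± 1.79 CPM (SD, n = 4), a call lost in the fit over all 16 libraries (edgeR adjusted p = 0.153). Of 10 other metal reductases and importers, 4 were higher and 1 lower at day 2 (all genes: 16.9% and 14.3%), and 1 was higher at day 4 (all genes: 13.7%). Slc39a8, a transporter of zinc and other metals and the only gene of that list called lower, fell by 0.23 ± 0.05 at day 2 (edgeR adjusted p = 0.00539). In the interaction edgeR called none of the 64 tested genes of the 5 lists, and 11 had an unadjusted p below 0.05, a share near the 17.5% of all genes.

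**Figure D5:**
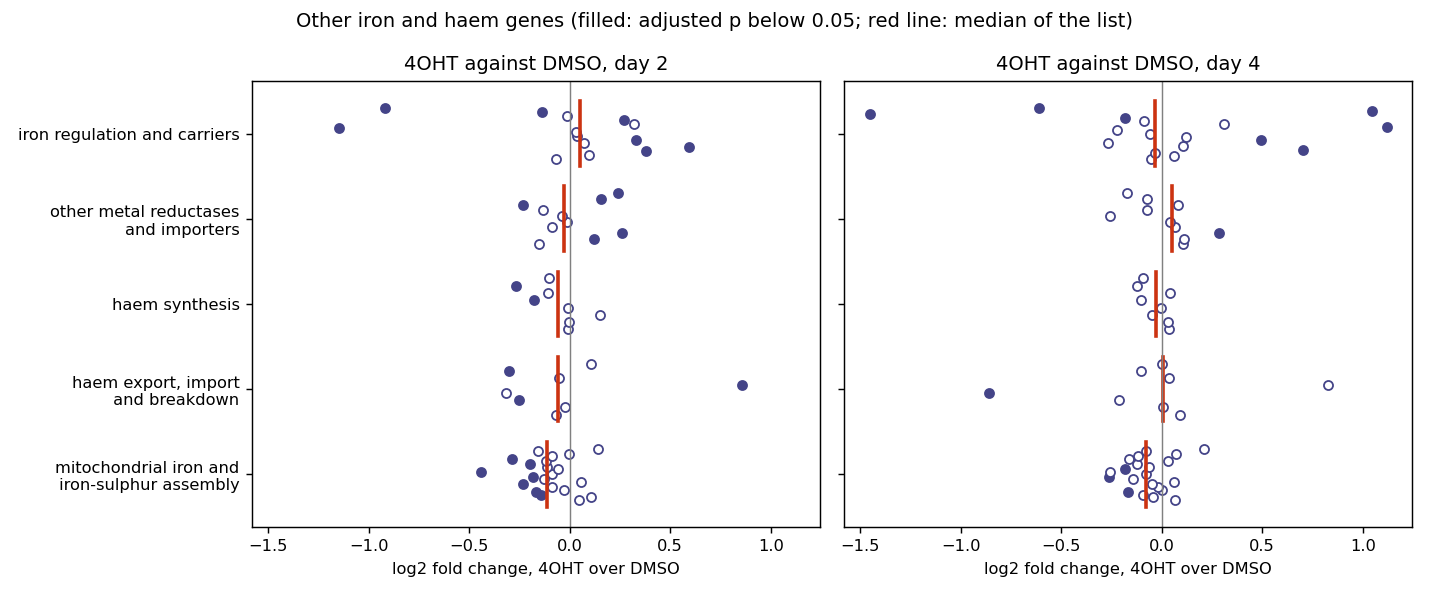
Log2 change, 4OHT over DMSO, of the tested genes in the 5 lists of iron and haem handling at day 2 and day 4 (1 point per gene, horizontal axis in log2 units), with filled points for an edgeR adjusted p below 0.05 and a red line for the median of each list. The points of the mitochondrial list that were called lie on the negative side on both days, 7 of 21 at day 2 and 3 of 21 at day 4.

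Over time in DMSO organoids, Tfr2 rose by 2.35 ± 0.26 on the log2 scale (edgeR adjusted p = 7.58e-06) and Bmp6, a ligand that in the liver induces hepcidin, by 1.42 ± 0.14 (edgeR adjusted p = 3.66e-06). Tfr2 was scarce, with 0.111 ± 0.0346 CPM at day 2 and 0.563 ± 0.104 at day 4 in DMSO (SD, n = 4). Its 4OHT means were 0.0801 and 0.203 CPM. Tfr2 may have passed the filter on low counts only through its day 4 libraries, so its rise is a description. Alas1, the first enzyme of haem synthesis, fell by 0.43 ± 0.05 (edgeR adjusted p = 6.37e-06) and Slc25a37, the mitochondrial iron importer mitoferrin, by 0.53 ± 0.07 (edgeR adjusted p = 6.59e-05). In 4OHT organoids Bmp6 rose by 1.01 ± 0.13 (edgeR adjusted p = 0.000128), Alas1 fell by 0.39 ± 0.05 (edgeR adjusted p = 0.000160) and Slc25a37 fell by 0.46 ± 0.10 (edgeR adjusted p = 0.00332). Cpox, a later enzyme of haem synthesis, rose by 0.60 ± 0.07 (edgeR adjusted p = 2.18e-05) in DMSO and by 0.40 ± 0.09 (edgeR adjusted p = 0.00490) in 4OHT.

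Summed markers of goblet, Paneth and stem or crypt cells did not overlap between DMSO and 4OHT on either day, and those of enterocytes did not overlap at day 2 and overlapped at day 4. The summed level of 10 enterocyte markers, the cells in which dietary iron is absorbed, was 8989 to 12005 CPM in DMSO against 6299.95 to 8559 in 4OHT at day 2, and 14131 to 15210.5 against 11986 to 17647 at day 4. The 5 goblet markers summed to 4054 to 4660.1 CPM and 6225 to 8170.5 at day 2, and to 3084 to 4369.7 and 5789 to 8162 at day 4. Those of Paneth cells summed to 1837 to 2322 and 1491 to 1653 CPM at day 2, and to 2466 to 3020.3 and 2203 to 2359 at day 4. Stem and crypt markers summed to 1068.5 to 1197 CPM and 587 to 645 at day 2, and to 2959.9 to 3332 and 1895 to 2327 at day 4. In bulk RNA, fewer cells of a type and less RNA per cell cannot be told apart, and the part of cell makeup in the differences of Steap3, Tfrc, Slc46a1, Ftl1 and Heph was not tested.

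Of cells outside the epithelium, erythroid cells and macrophages are the ones known for heavy use of iron genes. Of 7 erythroid markers 2 were listed, and their sum was 0.179 to 0.502 CPM over all libraries, while the globin genes Hbb-bs, Hbb-bt, Hba-a1 and Hba-a2 were at 0. Of 6 macrophage markers 4 were listed, with a sum of 2.08 to 5.96 CPM, and Adgre1 and Cd163 were at 0. Most of that sum was Cd68, with group means of 2.37 to 3.73 CPM, while Csf1r, Lyz2 and Ptprc each had at most 0.214 CPM. Of 6 stromal and endothelial markers 4 were listed, with a sum of 6.51 to 10.3 CPM and with Col3a1 and Kdr at 0. Most of it was Vim, with group means of 6.34 to 8.08 CPM. The tables list genes above a minimum, so 0 here means that the gene is not listed.

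Libraries within a group also varied together. After subtracting group means, the highest Pearson r of log2 levels over the 16 libraries was 0.86, for Slc11a2 and Ftl1. Next came Slc11a2 and Slc40a1 at 0.82, Ftl1 and Slc40a1 at 0.82, and Slc11a2 and Slc46a1 at 0.80. The lowest were Steap3 and Heph at -0.62, Cybrd1 and Tfrc at -0.52, and Steap3 and Tfrc at -0.51. Other pairs were unrelated, such as Slc40a1 and Heph at 0.005. Among all genes with a mean log2 CPM of at least 3, those whose pattern over the 16 libraries was most like that of Steap3 were Lyz1 (the Paneth cell lysozyme, r = 0.98), Slc1a1 (0.98) and Slc29a1 (0.98). Within groups these 3 correlated less with Steap3, at 0.57, 0.13 and 0.23, so the likeness follows the group means. For Cybrd1 they were Lyve1 (0.98), Rph3al (0.97) and Aldoc (0.97), and for Ftl1 they included Dpcd (0.98) and Erp29 (0.97). Those most like Slc40a1 were Rhob (0.96), Tmem237 (0.95) and Egln3 (0.94), the last a prolyl hydroxylase of hypoxia-inducible factors. The libraries share day, treatment and, at day 4, replicate number, so these values describe the libraries and carry no test.

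RefSeq promoter windows (GRCm38.p6, 250 bases before to 50 after a start) were at hand for Cybrd1, Steap3, Tfrc, Slc46a1, Fth1 and Ftl1. The letters CAAAGTCCA, a strict form of the HNF4 motif, were searched on both strands and matched in none of these windows and in 0.475% of all 32851. The hypoxia response core ACGTG was found in the 2 windows of Tfrc, as in 19.6% of all windows. These windows overlap, and their matches, at -2 and -228 from the respective start, are the same site. The TATA box letters TATAAA were found at -124 in 1 of the 2 windows of Fth1 and at 17, after the start, in that of Ftl1. They were found in 13.6% of all windows. No match says only that these letters are not in the window.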

How the data were processed

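Poly(A) RNA from 16 organoid libraries was made into directional libraries with an input of 250 ng each, per the labels' protocols. bcl2fastq 1.8.4, STAR 2.4.0f1 and the build GRCm38 are named in the submitters' processing notes. The counting tool is not given in the sources used here, nor are its annotation and use of strand, which leaves genes overlapping on opposite strands uncertain. The authors deposited, per the file headers, whole-number read counts per gene in 1 table per day, each gene with at least 10 counts over its 8 libraries. The deposited normalized values and statistics were not used.

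The quasi-likelihood test of edgeR 4.0.16 (with limma 3.58.1 under R 4.3.3) was run on the counts after filterByExpr and TMM scaling, with robust fitting and p-values adjusted after Benjamini and Hochberg over all genes tested. Treatment comparisons used the 8 libraries of a day, time comparisons the 8 of a treatment, and the interaction all 16. The SE is the log2 change over the square root of F. Precision follows from the 63.8 M to 93.3 M counts of a library, and all 24 pairs of libraries within a group differed by more than counting noise. As alternatives, DESeq2 1.42.0, its size factors in edgeR, a replicate block, no filter, a minimum of 1 CPM in 4 libraries, a joint fit of all 16 libraries, and leaving out each library were run. The scripts were tested on simulated data.

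Deviations of same-numbered DMSO and 4OHT libraries from their group means correlated at 0.64 to 0.81 at day 4, with 8 of 8 libraries closest to their own number. The numbers are taken to pair the libraries of that day, from the data alone, as no label gives a batch. Correlations were -0.11 to 0.49 at day 2, 0.057 to 0.18 across days in DMSO, and -0.22 to 0.40 across days in 4OHT. Closest to their own number were 2 of 8 libraries at day 2, 0 of 8 across days in DMSO and 4 of 8 across days in 4OHT. No pairing was taken from these.

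The 9 genes and Hnf4a are always named. From each list up to 3 called genes per direction with the smallest p, and its 2 most abundant genes, may be named, and for each of the 9 up to 3 genes of like pattern (Pearson r of log2 CPM with 0.5 added). Lists covered iron regulation, reductases and importers, haem synthesis, haem transport and breakdown, mitochondrial iron, and markers of enterocyte, goblet, Paneth, stem, enteroendocrine, tuft, erythroid, macrophage, stromal or endothelial, and liver cells. The genes and lists were chosen with earlier results of these data known. Some genes of these lists are not reported here.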

Additional observations from a re-analysis of the deposited data

Results flagged for a closer look

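The level of Tfrc in DMSO day 4 replicate 2 was 444 CPM, far from the other 3 libraries of its group, which had 330.2 to 346 CPM. On the log2 scale its gap to the nearest library was 0.838 of the range of the group. In all, 36 combinations of a gene and a group were looked at this way, and chance marks about 1 in 20 such groups.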

How the results depend on the processing

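Over the alternatives, 719 values of the 9 genes were recomputed: 664 had the same sign and call, 21 lost a call, 21 gained one and 13 changed sign, none of these 13 called in either fit. With the replicate block, the day 4 counts over all genes were 3651 higher and 3565 lower (2191 and 1776 without it), Slc11a2 at day 4 gained a call (0.15, edgeR adjusted p = 0.0107), and over time in 4OHT 0 of the 9 genes were called lower, since Heph was lost (-0.19, edgeR adjusted p = 0.0505), while Slc11a2 was gained (0.39, edgeR adjusted p = 0.0494). The block changed no other call of the 9 genes. The fit over all 16 libraries called 0 of the 9 genes higher at day 2, and no filter on low counts called 1 higher at day 4. The interaction counts over all genes were 199 higher and 79 lower, 600 and 247 by DESeq2, 625 and 264 with the block, and 1170 and 680 with a block for each number and day, which also called 2 of the 9 genes higher and 1 lower. Without 4OHT day 4 replicate 4 as well, chosen after seeing the data, the block gave 3822 genes higher and 3578 lower at day 4 with 5 of the 9 genes higher (Slc40a1 and Fth1 gained, the latter at 0.11, edgeR adjusted p = 0.0147), and the block for each number and day gave 1029 higher and 532 lower in the interaction with 0 of the 9 genes called. The cause was not tested.

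Leaving out each library in turn gave 1 to 2 of the 9 genes higher and 2 to 3 lower at day 2, 1 to 2 higher and 1 to 2 lower at day 4, 3 to 7 higher and 0 to 2 lower over time in 4OHT, and for the interaction 66 to 502 genes higher and 28 to 225 lower. Of the 13 changes of sign, that of Cybrd1 at day 4 to -0.097 came from the block without that library, and 12 came from leaving out 1 library, with ranges of -0.057 to 0.030 for Heph and -0.083 to 0.23 for Slc40a1 at day 2, -0.069 to 0.50 for Cybrd1 and -0.11 to 0.068 for Slc46a1 at day 4, and -0.070 to 0.084 for the interaction of Tfrc. Cybrd1 at day 2 rests on 8 to 30 counts per library, where a treatment change is hard to detect.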

Other observations

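Markers of 2 epithelial types and of liver cells add to the levels given above. The 5 enteroendocrine markers summed to 251 to 282 CPM in DMSO and 245 to 266 in 4OHT at day 2, and to 291 to 393 and 282 to 377 at day 4. The 4 tuft markers summed to 7.42 to 9.45 and 8.63 to 11.7 CPM at day 2, and to 14.8 to 19.7 and 13.9 to 23.5 at day 4. Of 4 liver cell markers, Alb and Ttr were listed and Serpina1a and Hamp were at 0, and the sum was 6.91 to 10.2 CPM in DMSO and 2.18 to 2.90 in 4OHT at day 2, and 13.9 to 16.8 and 3.75 to 5.43 at day 4. Most of it was Ttr, with group means of 2.45 to 15.2 CPM, against 0.142 to 0.760 for Alb.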
